A study of Mus musculus with 14 samples.

Results

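Colon lamina propria macrophages and CD44+ EpCAM+ colon epithelial cells of control mice were compared over all genes, from 3 macrophage libraries and 4 epithelial libraries. They are 7 of the 14 bulk RNA-seq libraries of a series on mice that lose Tsc2, a brake on the growth kinase mTORC1, in cells expressing Lyz2. Every control mouse was Tsc2fl/fl Lyz2+/+: both copies of Tsc2 carried floxed alleles and no Cre recombinase was present, so these controls are not animals with unmodified Tsc2. The macrophages (libraries 2 and 4 from females, 6 from a male) had been sorted as CD45+ CD11b+ CD64+ MHC II+ cells that lacked Ly6G, SiglecF, CD24, CD103 and Ly6C, with CD11c either present or absent. The epithelial cells (libraries 2 and 4 from females, 6 and 7 from males) had been sorted as CD45- EpCAM+ CD44+ cells. Ages were not given, nor what the library numbers stand for. The series text counts 3 control mice whereas the library names carry 4 control numbers, so some epithelial libraries may share an animal, and p-values measure only the spread between these libraries. The 7 libraries held 7269103 to 9147484 counts each.

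Macrophages of the colon wall arise largely from blood monocytes, clear dying cells and microbes under the epithelium, present antigen, and make cytokines that hold the mucosa in a steady state. The colon epithelium renews itself from stem cells at the crypt base, which give rise to absorptive colonocytes, mucus-producing goblet cells and hormone-producing enteroendocrine cells. CD44 is a hyaluronan receptor that in the epithelium marks the lower crypt, where stem cells, dividing progenitors and young secretory cells lie. Cell identity in both compartments is held by transcription factors that switch on receptors, secreted products and enzymes.

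Of 28549 genes with counts in any of the 7 libraries, 15188 had enough counts to be tested. A gene was called higher in a cell type when edgeR's quasi-likelihood test gave an adjusted p under 0.05 and the difference was at least 2-fold. By that rule macrophages had 3906 higher genes (25.7%) and epithelium 3248 (21.4%), and the members of every gene list given here are to be read against those 2 shares. With upper-quartile scaling the balance turned, with 3601 genes higher in macrophages and 3697 in epithelium. Pearson correlations of log expression were 0.936 to 0.945 among macrophage libraries, 0.960 to 0.981 among epithelial libraries and 0.433 to 0.490 between them. The same comparison in the other 7 libraries of the series, from mice with Lyz2-driven Cre and sharing no library with these, called 4337 of 15067 genes (28.8%) higher in macrophages and 3597 (23.9%) in epithelial cells. Of the genes called in controls, 3326 (85.2%) of those higher in macrophages and 2727 (84.0%) of those higher in epithelial cells were called in the same direction there. These were 76.7% and 75.8% of the calls made there, and 0 and 2 control calls had the opposite direction.

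Levels are given below as CPM (counts scaled to library size) in each library, in the order 2, 4, 6 for macrophages and 2, 4, 6, 7 for epithelium, or as mean ± SD over the 3 macrophage or 4 epithelial libraries. Log2 differences are macrophage minus epithelial, with ± SE, and a negative value means a higher level in epithelium. CPM do not correct for transcript length and are compared only between libraries. Genes said to lead a list had the highest mean CPM in that cell type, which ranks reads and not levels per length. Levels of different genes are compared as FPKM, the values scaled by transcript length and depth that the authors deposited. In bulk libraries fewer cells of a type and less RNA per cell cannot be told apart.

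The labelled identities matched their defining markers. Csf1r, the receptor for the growth factor that keeps macrophages alive, stood at 1409, 1707 and 1687 CPM in the macrophage libraries and 6.94, 4.82, 14.2 and 15.3 CPM in the epithelial libraries (log2 difference 7.28 ± 0.39, adjusted p = 1.5e-07). Adgre1, which encodes the F4/80 antigen, stood at 738, 974 and 953 CPM in the macrophage libraries and 1.30, 2.57, 2.70 and 2.14 CPM in the epithelial libraries (8.68 ± 0.25, adjusted p = 9.9e-09). Muc2, the main gel-forming mucin of goblet cells, stood at 16.1, 12.1 and 24.9 CPM in the macrophage libraries and 3973, 2546, 4836 and 2212 CPM in the epithelial libraries (-7.58 ± 0.43, adjusted p = 1.8e-07). The groups did not overlap for any of these genes, and in Muc2 epithelial libraries 2 and 6 stood above 4 and 7. Of 16 markers of gut macrophages 15 were higher in macrophages, among them Lyz2, C1qa, Cx3cr1 and Cd68, and the other, the efferocytosis receptor Mertk, stood at 23.7 against 13.3 CPM and was not called (adjusted p = 0.0639). Without epithelial library 6 the difference of Mertk was 1.26 and was called. All 16 epithelial markers, including Krt8, Cdh1, Vil1 and Lgals4, were higher in epithelium.

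Genes of the sort antigens are described without a test, since the sort used their proteins. Epcam stood at 11.0, 3.54 and 15.2 CPM in the macrophage libraries and 443, 489, 557 and 612 CPM in the epithelial libraries. Ptprc (CD45) stood at 350.4, 402 and 421 CPM in the macrophage libraries and 3.04, 1.29, 6.25 and 3.10 CPM in the epithelial libraries, and Fcgr1 (CD64) at 66.6, 111 and 106 CPM in the macrophage libraries and 0.868, 0.107, 0.710 and 0.748 CPM in the epithelial libraries. Cd44, which defined the epithelial gate, was the exception in direction: it had 865, 666 and 765 CPM in macrophages and 130.2, 109, 109 and 130.3 CPM in epithelium, so every macrophage library stood above every epithelial library. Among antigens that the macrophage gate excluded, Cd24a stood at 308, 195 and 230.4 CPM, Ly6c2 at 62.6, 52.8 and 62.9 CPM, Itgae (CD103) at 22.0, 16.8 and 15.7 CPM and Siglecf at 7.16, 6.94 and 4.35 CPM in the macrophage libraries.

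The macrophage libraries also held transcripts of other lamina propria cells. Summed over each marker list, fibroblast and smooth muscle markers (Col3a1, Dcn, Lum) came to 6977, 8077 and 4439.8 CPM in macrophage libraries 2, 4 and 6 against 29.3 to 41.0 CPM in epithelium, and 17 of 17 tested were higher in the macrophage libraries. B and plasma cell markers (Igha, Jchain, Ighm) came to 1712, 5553 and 7360.4 CPM against 144 to 254 CPM. Dendritic cell markers (Ccr7, Cd209a, Flt3) came to 3398, 1996 and 2011 CPM, and endothelial markers (Eng, Plvap, Pecam1) to 747, 531 and 761 CPM. Macrophage library 6 held the most plasma cell and epithelial marker RNA and the least stromal RNA. The 16 epithelial markers were present in macrophage libraries at a median of 1.40%, 0.561% and 3.01% of their epithelial level, and the 15 called macrophage markers in the epithelial libraries at medians of 0.353% to 0.792% of their macrophage level. The part of these transcripts in the differences given below was not tested.

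**Figure D1:**
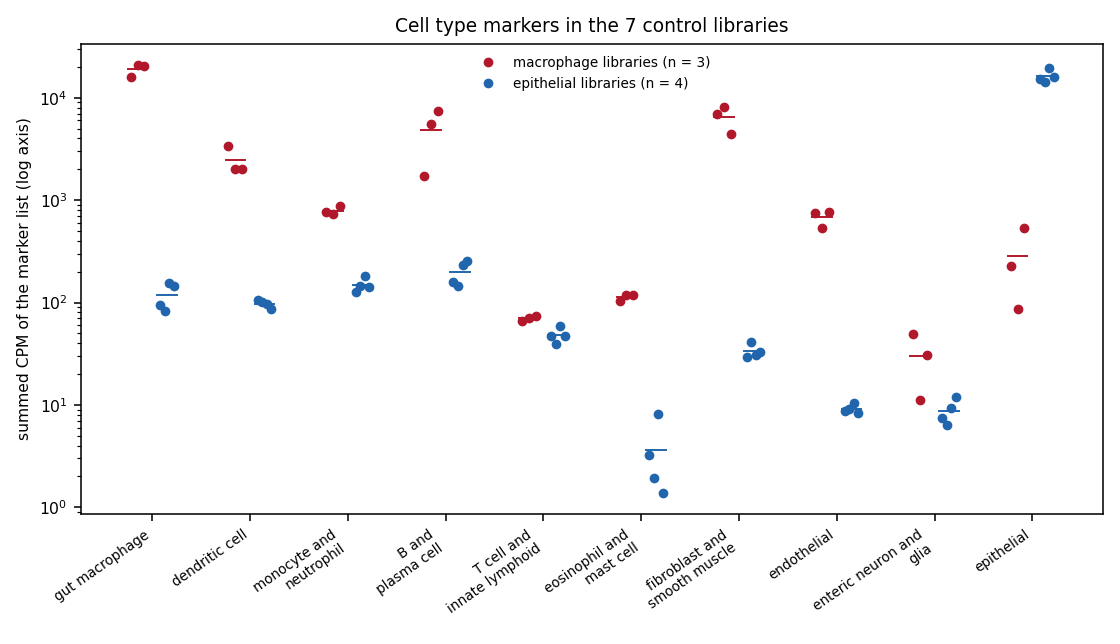
Summed CPM of 10 cell type marker lists on a log axis, with a point for each of the 3 macrophage libraries (red) and 4 epithelial libraries (blue) and a line at each group's mean. Macrophage markers stand at 15831 CPM or more in the red libraries and epithelial markers at 14318 CPM or more in the blue ones, while fibroblast, plasma cell and endothelial markers are seen mainly in the macrophage libraries.

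By deposited FPKM and among called genes, the macrophage libraries were led by the antigen presentation genes H2-Ab1 (14420.1 ± 1163), H2-Aa (5659 ± 348), Cd74 (4315 ± 259) and H2-Eb1 (3654 ± 312), by the lysozyme gene Lyz2 (5142 ± 611) and by Apoe (4050.0 ± 1153), a carrier of lipids. H2-Ab1, H2-Aa and H2-Eb1 encode MHC II, which the macrophage gate required, so their place here is description only. Actb, Fth1, Tmsb4x and the activation antigen gene Cd83 (2171 ± 85.6) completed the leading 10 called genes. In epithelium the leading called genes by FPKM were Agr2 (4551 ± 543), a chaperone that folds mucins, Cox4i1 (2339 ± 49.5), a subunit of the respiratory chain, and Lgals4 (2052 ± 196), a sugar-binding galectin. Spink4 (1817 ± 342) and Klk1 (1375 ± 209.7) of goblet cells, Guca2a (1284 ± 592), the precursor of guanylin, Lypd8 (1166 ± 487), which keeps flagellated bacteria away, Phgr1, Atp5b and Gpx2 followed. Phgr1 varied most of these, at 1414 ± 885 FPKM: it stood at 614, 660.4, 1954 and 823 CPM in the epithelial libraries, highest in library 6.

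Among genes averaging 20 CPM or more, the 10 largest toward epithelium were led by Chgb (-9.36), Gcg (-9.20), Chga (-9.19) and Tph1 (-9.11), and Pyy was also among them. These encode granule proteins and hormones of enteroendocrine cells. Ano9, Clca3b, Lpo (lactoperoxidase), the goblet cell product Retnlb and the glucosidase gene Mgam made up the rest. Toward macrophages, Ccdc80 had 65.4, 73.1 and 44.0 CPM and no count in any epithelial library, which puts it at least 709-fold above the limit set by 3 counts over the epithelial group. F13a1, the coagulation factor XIII subunit of macrophages, stood at 265, 337 and 407 against 0.108, 0.321, 0.142 and 0.214 CPM (10.61 ± 0.28). Adamdec1, a protease of gut mononuclear and stromal cells, stood at 1009, 2705 and 1458 CPM (10.46 ± 0.44), with library 4 above the other two. Col6a1, Postn and Col1a2, which encode matrix proteins of fibroblasts, and the caveolin gene Cav1 were also in the leading 10, beside Ms4a4d, Serpina3n and Cd300lg. Ccdc80, Ms4a4d, Serpina3n, Col6a1, Postn and Col1a2 were lowest in macrophage library 6, as the stromal marker sum was. Postn and Col1a2 count in that sum and so are not separate from it. Cav1 and Cd300lg were lowest in library 4, as the endothelial marker sum was, and F13a1 and Adamdec1 in library 2. The stromal and endothelial marker sums given above move with the macrophage group, and the cells that held these transcripts were not tested.

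Macrophage transcription factors were higher in macrophages almost throughout. Of 24 factors known from macrophage biology 23 were higher in macrophages and none in epithelium, with a median log2 difference of 6.33 against -0.00345 over all tested genes. Spi1 encodes PU.1, the factor that opens macrophage enhancers. It stood at 359, 439.6 and 478 CPM in the macrophage libraries and 2.60, 1.29, 3.98 and 5.34 CPM in the epithelial libraries (7.01 ± 0.36, adjusted p = 1.1e-07). Every macrophage library stood far above every epithelial library. The NF-kappaB subunit gene Rel (6.31 ± 0.24), the circadian repressor Bhlhe40 (4.44 ± 0.21), Mef2c (8.37 ± 0.21) and Irf5 (8.09 ± 0.35) were higher in macrophages too. Nr1h3, the oxysterol receptor LXR alpha, was the member without a call, at 13.2 against 8.97 CPM.

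Epithelial factors formed the mirror image. Of 28 factors of intestinal epithelium 24 could be tested, and 22 were higher in epithelium. Cdx1 and Cdx2, homeobox genes that specify the intestine, stood at 284 ± 21.1 and 43.6 ± 5.73 CPM in epithelium (-6.50 ± 0.47 and -7.10 ± 0.59). Hnf4a, a nuclear receptor that drives genes of absorptive cells, stood at 0.114, 0.885 and 2.24 CPM in the macrophage libraries and 103, 88.8, 98.3 and 102 CPM in the epithelial libraries (-6.53 ± 0.47, adjusted p = 9.9e-07). Elf3 (-5.35 ± 0.70), Ehf (-3.65 ± 0.15) and Klf5 (-5.84 ± 0.37), factors of simple epithelia, were higher in the epithelial libraries as well. Foxa1, Foxa2 and Grhl2 had no count in any macrophage library and were at least 113-fold, 108-fold and 94.5-fold higher in epithelium. Hes1, the Notch target that favours absorptive fate, went the other way. It stood at 121, 255 and 362 CPM in the macrophage libraries and 129.5, 94.1, 86.8 and 118 CPM in the epithelial libraries (1.20 ± 0.31, adjusted p = 0.00649), and macrophage library 2 fell within the range of the epithelial libraries. Without macrophage library 6 its difference was 0.80, under the 2-fold limit.

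Most secretory lineage factors were higher in epithelium. Of 15 that could be tested 11 were called there. Spdef, which drives goblet cell maturation, stood at 1.14, 0.738 and 0.923 CPM in the macrophage libraries and 165, 143, 187 and 117 CPM in the epithelial libraries (-7.32 ± 0.27, adjusted p = 2.0e-08). Atoh1, the switch to secretory fate, stood at 59.1 ± 7.71 CPM in epithelium (-6.69 ± 0.43), and Creb3l4 (-6.08 ± 0.31) and Foxa3 (-6.67 ± 0.32) were likewise higher there. The enteroendocrine factors Neurod1, Fev, Rfx6, Lmx1a and Pax6 were at 0 counts in all macrophage libraries and averaged 10.3, 4.09, 2.02, 1.83 and 1.12 CPM in epithelium, which makes them at least 79.6-fold, 31.6-fold, 15.6-fold, 14.2-fold and 8.66-fold higher. Etv1 was higher in macrophages (1.43 ± 0.35), and without macrophage library 2 the list had 2 such members. Xbp1, a regulator of secretion that both kinds of cell use, was not called, at 459 against 341 CPM beside the plasma cell markers noted above.

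**Figure D2:**
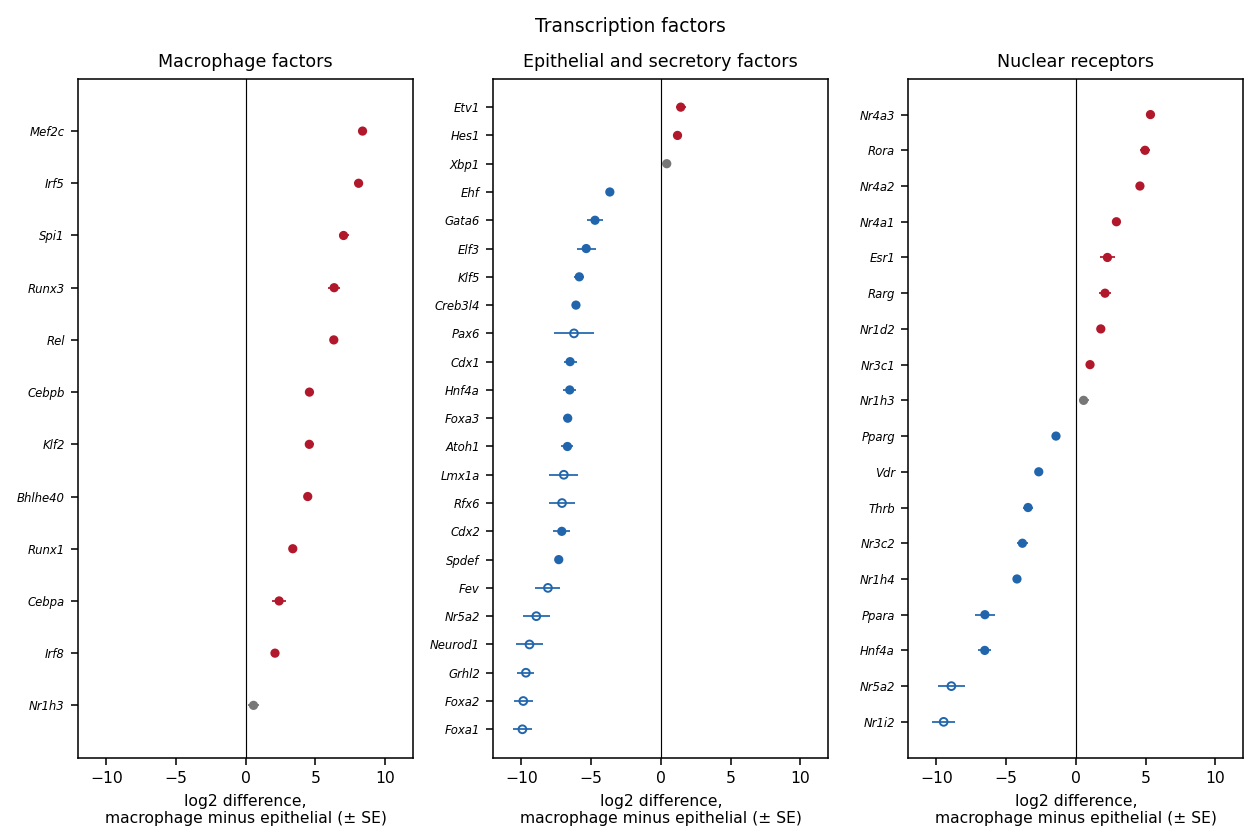
Log2 differences (macrophage minus epithelial, ± SE) of macrophage factors, epithelial and secretory factors, and nuclear receptors that the text names. Red points were called higher in macrophages, blue in epithelium, grey in neither, and open points have no count in 1 group, so their fitted position is not a bound. Macrophage factors lie right of 0, the epithelial panel lies left except for Hes1 and Etv1 among the called genes, and nuclear receptors divide.

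Families of transcription factors divided between the cell types to different degrees. All 7 STAT genes, which carry cytokine signals, were higher in macrophages, from Stat6 (1.85) to Stat4 (5.82). Stat3, which also passes on IL-10 signals, stood at 206, 137 and 146 CPM in the macrophage libraries and 33.1, 23.1, 33.5 and 26.9 CPM in the epithelial libraries (2.48 ± 0.19, adjusted p = 1.7e-06). In the IRF family Irf8, Irf5, Irf1, Irf9 and Irf4 were higher in macrophages. Irf8, which defines mononuclear phagocytes, kept 108, 107, 122 and 118 CPM in the epithelial libraries, and its difference of 2.10 ± 0.24 was the smallest of the 5. Irf7 stood at 29.0 and 28.2 CPM, without a call, and without epithelial library 6 its difference was 1.11 and called. Runx1, Runx3, Cebpa, Cebpb and Cebpd were higher in macrophages. Among GATA genes Gata2 and Gata3 were higher in macrophages, at 3.49 and 2.93 CPM, and Gata6 in epithelium, at 41.9 CPM.

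Kruppel-like genes were called in both directions, and called Hox genes lay mostly on the epithelial side. Klf6, Klf10, Klf7 and Klf2 were higher in macrophages, Klf5 and Klf12 in epithelium, and 7 of the 13 tested were not called. These shares, 30.8% and 15.4%, lay near the 25.7% and 21.4% of all tested genes. The call of Klf6 was lost without macrophage library 4, at 0.99. Klf4, a factor linked to both monocytes and goblet cells, had 9.66, 6.20 and 12.3 CPM in macrophages and 8.24, 5.89, 30.5 and 7.37 CPM in epithelium, highest in epithelial library 6. Of 12 Hox genes tested 9 were higher in epithelium, led by the hindgut genes Hoxb13 (5.23, 0 and 8.84 CPM in the macrophage libraries and 68.7, 66.4, 44.6 and 106 CPM in the epithelial libraries, -3.90 ± 0.77, adjusted p = 0.00227) and Hoxb9 (-5.31 ± 0.31). Macrophage library 4 had no Hoxb13 count, and library 6, which held the most epithelial marker RNA, had the most. The cells that held Hoxb13 in the macrophage libraries were not tested. Hoxd9 was higher in the macrophage libraries, at 1.70, 2.95 and 2.11 CPM and at 0 in epithelium, at least 26.3-fold, and without macrophage library 6 there were 3 such Hox genes.

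Nuclear receptors, which let cells read hormones, lipids and bile acids, were called on both sides. Of 34 tested, 9 were higher in macrophages, 15 in epithelium and 10 in neither. The macrophage share, 26.5%, lay near the 25.7% of all tested genes, and the epithelial share was 44.1% against 21.4%. The stress-induced orphan receptors Nr4a1, Nr4a2 and Nr4a3 led on the macrophage side. Nr4a1 stood at 812, 840.3 and 962 CPM in the macrophage libraries and 138, 84.0, 135 and 106 CPM in the epithelial libraries (2.91 ± 0.18, adjusted p = 4.1e-07). The retinoid-related Rora (4.96 ± 0.32), the clock gene Nr1d2, the glucocorticoid receptor Nr3c1 (1.02 ± 0.22), Rarg and the oestrogen receptor Esr1 were also higher there. Nr3c1 fell under the 2-fold limit, to 0.86, 0.97 or 0.87, without macrophage library 4, macrophage library 6 or epithelial library 2. On the epithelial side, the vitamin D receptor Vdr stood at 18.9, 21.1 and 28.0 CPM in the macrophage libraries and 144, 143, 134 and 150.2 CPM in the epithelial libraries (-2.66 ± 0.16, adjusted p = 3.6e-07). The bile acid receptor Nr1h4 (-4.22 ± 0.23), the mineralocorticoid receptor Nr3c2 (-3.83 ± 0.38), the thyroid hormone receptor Thrb (-3.43 ± 0.38) and Ppara (-6.52 ± 0.72) were higher there. The xenobiotic receptor Nr1i2 and the orphan receptor Nr5a2 had no count in macrophages and were at least 82.7-fold and 56.5-fold higher in epithelium. Pparg was higher in epithelium at a smaller difference (-1.42 ± 0.25).

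Promoters of 4 genes that lay on opposite sides of the comparison are printed to show letters that these factors are known to read. Each is the run of 250 bases before the RefSeq transcription start in build GRCm38.p6, 5′ to 3′ on the gene's strand, with the motif in capitals. C1qc (chr4:136892915-136893164, minus strand) shows the PU.1 motif GAGGAAGT, here on the other strand. Cybb (chrX:9469325-9469574, minus strand) shows the interferon response motif (GAAA, any 2 bases, GAAA) on both strands, Slc26a3 (chr12:31437969-31438218, plus strand) the HNF1 motif (GTTAAT, any base, ATTAA), and Muc13 (chr16:33794239-33794488, plus strand) the HNF4 motif CAAAGTCCA on the other strand.
C1qc: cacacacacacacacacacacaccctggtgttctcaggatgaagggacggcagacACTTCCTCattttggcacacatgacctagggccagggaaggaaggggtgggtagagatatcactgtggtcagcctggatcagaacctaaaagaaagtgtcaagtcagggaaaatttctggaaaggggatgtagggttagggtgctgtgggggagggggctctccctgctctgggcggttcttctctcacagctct
Cybb: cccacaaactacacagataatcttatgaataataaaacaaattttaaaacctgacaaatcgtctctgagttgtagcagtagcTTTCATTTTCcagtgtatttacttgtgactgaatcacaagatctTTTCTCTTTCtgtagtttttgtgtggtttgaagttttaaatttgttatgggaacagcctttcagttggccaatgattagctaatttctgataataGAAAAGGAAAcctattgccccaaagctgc
Slc26a3: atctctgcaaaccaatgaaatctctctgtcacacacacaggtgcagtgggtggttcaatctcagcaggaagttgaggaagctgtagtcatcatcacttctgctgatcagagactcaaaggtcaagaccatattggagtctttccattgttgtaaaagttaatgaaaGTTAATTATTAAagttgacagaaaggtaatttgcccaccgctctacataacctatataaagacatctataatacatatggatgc
Muc13: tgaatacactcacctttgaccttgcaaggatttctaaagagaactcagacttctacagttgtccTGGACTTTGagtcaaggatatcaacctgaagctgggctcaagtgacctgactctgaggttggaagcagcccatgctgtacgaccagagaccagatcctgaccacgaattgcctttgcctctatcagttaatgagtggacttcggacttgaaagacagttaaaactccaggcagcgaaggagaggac
Searched on both strands over windows of 300 bases, the PU.1 letters were found for 3.69% of 27025 genes, the interferon response letters for 3.99%, the HNF4 letters for 0.555% and the HNF1 letters for 0.074%. A match describes the sequence and is not a bound site, and these 4 windows were chosen after the gene values were known. A comparison of motif shares between genes higher in each cell type was void, because only 67.7% of tested genes had a window.

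Receptors for immune signals were mostly higher in macrophages. Of 16 chemokine receptors tested 15 were higher in macrophages and none in epithelium. Ccr2, which brings monocytes into tissue, stood at 452, 393 and 569 CPM in the macrophage libraries and 1.52, 0.964, 1.56 and 1.28 CPM in the epithelial libraries (8.46 ± 0.22, adjusted p = 9.8e-09). Cx3cr1, the fractalkine receptor of resident gut macrophages, stood at 255, 636 and 520.5 CPM (7.39 ± 0.34), lowest in library 2. Ccr7, which guides dendritic cells to lymph nodes, stood at 1612, 955 and 749.5 CPM (8.74 ± 0.37), highest in library 2. Ccr1, a receptor for inflammatory CC chemokines, was higher in macrophages at 7.30 ± 0.45.

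Of 44 cytokine receptor genes 35 were higher in macrophages and 5 in epithelium. Ifngr1 (2.12 ± 0.12), Il10ra (6.53 ± 0.45), Il4ra (4.21 ± 0.14) and the decoy receptor Il1r2 (7.11 ± 0.39) led the macrophage side after Csf1r. Il10ra, through which IL-10 restrains gut macrophages, stood at 396, 521 and 552 CPM in the macrophage libraries and 2.39, 2.79, 10.5 and 5.98 CPM in the epithelial libraries. The epithelial members were receptors for IL-17 and IL-22, cytokines that act on barrier cells, and for prolactin. Il17rc stood at 32.3, 29.2 and 13.1 CPM in the macrophage libraries and 68.3, 83.0, 106 and 96.4 CPM in the epithelial libraries (-1.83 ± 0.29, adjusted p = 3.5e-04). Il17re reached 20.3 ± 7.28 CPM in epithelium (-4.83 ± 0.60) and Prlr 21.7 ± 6.46 CPM (-3.48 ± 0.45), while Il22ra1 and Il17rb averaged 1.70 and 1.51 CPM with no macrophage count, at least 13.1-fold and 11.7-fold higher. Il1r1, the signalling receptor for IL-1, was not called, at 10.1 against 8.16 CPM.

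Receptors for microbes followed the same division, with a few epithelial members. Of 35 pattern recognition receptors 25 were higher in macrophages and 3 in epithelium. The beta-glucan receptor Clec7a stood at 947, 949 and 938 CPM in the macrophage libraries and 4.12, 3.11, 6.67 and 4.49 CPM in the epithelial libraries (7.69 ± 0.24, adjusted p = 1.1e-08). Tlr2 (4.61 ± 0.23), Cd14 (4.88 ± 0.21), Clec4a1 and Clec4n were the next highest, and reads of the near-identical Clec4a genes may be split between copies. In epithelium, Nlrp6, an inflammasome sensor of the gut lining, stood at 0.454, 0.443 and 1.19 CPM in the macrophage libraries and 135, 101, 115 and 142 CPM in the epithelial libraries (-7.45 ± 0.31, adjusted p = 3.5e-08). Naip1 and Naip6, members of a family of sensors of flagellin and bacterial secretion needles with close copies, were higher in epithelium at -3.98 ± 0.45 and -1.55 ± 0.31.

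Uptake receptors bind debris, antibody-coated particles and lipoproteins. Of 32 Fc, complement and scavenger receptor genes 30 were higher in macrophages and none in epithelium. Axl, which binds phosphatidylserine bridges on dying cells, stood at 831, 973 and 905 CPM in the macrophage libraries and 1.84, 1.93, 3.41 and 6.20 CPM in the epithelial libraries (8.07 ± 0.38, adjusted p = 7.0e-08). The signal adaptors Tyrobp (7.43 ± 0.26) and Fcer1g (6.94 ± 0.26), the lectin gene Cd209a and the neonatal Fc receptor gene Fcgrt (2.41 ± 0.14) were the others of the leading 5. Fcgrt differed least of these and stood at 92.6 ± 6.20 CPM in epithelium. Cd209a is also among the dendritic cell markers summed above, and the cells that held it were not tested.

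Receptor tyrosine kinases divided between the compartments. Of 43 tested 15 were higher in the macrophage libraries and 20 in epithelium. Csf1r and Axl, given above, led the macrophage side. Next came Fgfr1 (71.8, 82.4 and 86.0 CPM), Pdgfrb (65.1, 52.8 and 44.6 CPM), Kdr (54.3, 25.1 and 59.1 CPM), Flt3 and Ddr2, and Flt1, Tie1, Tek, Flt4 and Pdgfra were also higher. Pdgfrb, Pdgfra, Kdr, Flt1 and Tie1 are known from stromal and endothelial cells, whose marker sums in these libraries are given above. Flt3 is among the dendritic cell markers summed above. In epithelium, the growth factor receptor Erbb2 stood at 4.09, 7.08 and 5.41 CPM in the macrophage libraries and 87.9, 88.2, 128 and 101 CPM in the epithelial libraries (-4.20 ± 0.24, adjusted p = 2.1e-07). Erbb3 (-4.50 ± 0.47), the crypt position receptors Ephb2 (-7.56 ± 0.61) and Ephb3 (-2.03 ± 0.30), Fgfr3 (-6.63 ± 0.36), Ddr1 (-3.25 ± 0.40), Mst1r (-4.15 ± 0.35) and Ntrk2 (-6.70 ± 0.53) were higher there. Met differed less (-1.22 ± 0.32), and Egfr, at 9.25 against 18.5 CPM, lay at the 2-fold limit. Egfr lost its call without macrophage library 2 or 6 or epithelial library 4 or 6, at -0.92, -0.94, -0.98 and -0.89. Kit, which marks deep crypt secretory cells as well as mast cells, was higher in epithelium (52.6 ± 11.0 against 17.8 ± 6.56 CPM), as was the insulin receptor gene Insr (-1.77 ± 0.23).

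Developmental and metabolite receptors were also shared out. Of 31 Wnt, Notch, BMP and TGF-beta receptor genes 10 were higher in macrophages and 13 in epithelium. On the macrophage side stood the TGF-beta family receptors Acvrl1 (5.72 ± 0.20), Tgfbr2 (2.11 ± 0.14) and Tgfbr1 (3.49 ± 0.31), with Eng and Fzd1. Eng is among the endothelial markers summed above, and the part of endothelial cells in these receptor differences was not tested. On the epithelial side stood the stem cell receptor Lgr5, at 0.114, 0.295 and 1.32 CPM in the macrophage libraries and 48.2, 41.0, 25.7 and 26.0 CPM in the epithelial libraries (-5.93 ± 0.55, adjusted p = 6.8e-06), with its relative Lgr4 (-5.60 ± 0.58), the Wnt brake Rnf43 (-4.32 ± 0.60), Fzd3 and Bmpr1a (-1.12 ± 0.21). Of 50 receptors for metabolites, lipids, purines and gut peptides 34 were higher in macrophages and 10 in epithelium. Ptafr, P2ry6, P2ry10, the prostaglandin receptor Ptger4 and the butyrate and niacin receptor Hcar2 led in macrophages, Ptger4 at 101, 146 and 166 CPM and Hcar2 at 105, 159 and 98.8 CPM. The guanylin receptor Gucy2c (6.59, 10.3 and 10.2 CPM in the macrophage libraries and 149, 157, 134 and 163 CPM in the epithelial libraries, -4.07 ± 0.20, adjusted p = 7.5e-08) led in epithelium, before the fatty acid receptors Ffar2 (-3.79 ± 0.47) and Ffar4 (-2.83 ± 0.32), P2ry1 and the vasoactive peptide receptor Vipr1.

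Integrins anchor cells to matrix and to each other. Of 17 tested 10 were higher in macrophages and 5 in epithelium, and the integrin-binding protein genes Itgb1bp1 (1.52 ± 0.18) and Itgb3bp (-1.35 ± 0.28), counted beside them in the plot of lists, lay on opposite sides. Itgb2 (6.82 ± 0.32) and Itgal (6.68 ± 0.39), which pair in leukocytes, and Itgb7 (8.40 ± 0.42) were higher in macrophages. Itga6 (-2.89 ± 0.19) and Itgb4 (-3.21 ± 0.30), which pair in the hemidesmosomes that fix epithelium to its basement membrane, were higher in epithelium, with Itga2 and Itga3. Itgb6 had no macrophage count and was at least 70.9-fold higher in epithelium.

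Among secreted factors, chemokine and cytokine genes were expressed mostly on the macrophage side. Of 28 chemokines 23 were higher in macrophages and 3 in epithelium. Ccl9 (3.58 ± 0.16), Cxcl16 (6.46 ± 0.34), Cxcl2 (7.45 ± 0.42) and Pf4 (7.63 ± 0.39) were among the 5 highest. The other, Cxcl12, a product of stromal cells, stood at 806, 699.5 and 486 CPM (9.54 ± 0.35), lowest in library 6 as the stromal marker sum was. Ccl28, an attractant for plasma cells, was higher in epithelium at 3.18, 0.295 and 0.527 CPM in the macrophage libraries and 50.2, 45.1, 48.4 and 40.9 CPM in the epithelial libraries (-5.01 ± 0.52, adjusted p = 1.6e-05). Cx3cl1, the membrane-bound ligand of Cx3cr1, stood at 6.70, 9.30 and 10.8 CPM in the macrophage libraries and 30.6, 24.4, 35.5 and 31.7 CPM in the epithelial libraries (-1.77 ± 0.23, adjusted p = 7.6e-05), and Ccl25 was higher in epithelium at 2.70 CPM. Ccl6 was abundant in both, at 1355 ± 155 and 1026 ± 203 CPM, and was not called.

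Of 29 interleukin and TNF superfamily genes 24 were higher in macrophages and none in epithelium, against 1 in epithelium without epithelial library 2, 4 or 6 and 2 without macrophage library 4. Il1b stood at 2804, 2097 and 2592 CPM in the macrophage libraries and 3.36, 5.36, 14.1 and 11.1 CPM in the epithelial libraries (8.22 ± 0.46, adjusted p = 1.9e-07). Its antagonist Il1rn (4.20 ± 0.30), Osm (8.85 ± 0.40), Tnf (4.69 ± 0.56) and Il10 (7.03 ± 0.36) came next, and Osm and Tnf were lowest in macrophage library 2. Il18, a cytokine that both cell types are known to make, stood at 17.4 and 16.7 CPM without a call. Of 19 complement genes 14 were higher in macrophages. C1qb, C1qa and C1qc, the chains of the recognition protein C1q, averaged 2114 ± 366, 1206 ± 269.6 and 801 ± 226 FPKM in macrophages and 10.4, 7.21 and 3.97 FPKM in epithelium. Properdin (Cfp, 7.98 ± 0.35) and the C1 inhibitor gene Serping1 (8.18 ± 0.36) were the others of the leading 5. C4bp and Cfb were higher in epithelium, at 5.95 and 3.72 CPM.

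Growth factors were called in both directions. Of 47 tested 26 (55.3%) were higher in the macrophage libraries and 10 (21.3%) in epithelium. The epithelial share lay near the 21.4% of all tested genes. The leading macrophage-side members were Gdf15 (77.5, 106 and 139 CPM), Igf1 (67.3, 88.4 and 101 CPM), Bmp4 (83.4, 94.6 and 45.8 CPM), Pgf and Wnt11. Bmp4, Wnt11 and Igf1 are also known from gut stroma, whose sum is given above. The heparin-binding EGF gene Hbegf, which many macrophages express, was higher in epithelium, at 27.3, 16.8 and 21.9 CPM in the macrophage libraries and 163, 126, 269 and 185 CPM in the epithelial libraries (-3.07 ± 0.28, adjusted p = 6.4e-06). Edn1 (-4.22 ± 0.41), Bmp3 (-4.05 ± 0.21), Fgf1 (-2.24 ± 0.42) and the hedgehog ligand Ihh (-7.05 ± 0.45), by which epithelium speaks to stroma, were higher there too. Egf had no macrophage count and averaged 4.13 CPM in epithelium, at least 31.9-fold higher, and Tgfa stood at 7.40 against 1.34 CPM (-2.41 ± 0.68).

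Products of goblet and other secretory cells were the epithelial counterpart. Of 27 goblet cell and mucus genes 24 were higher in epithelium and none in macrophages. Agr2 stood at 38.4, 18.3 and 51.2 CPM in the macrophage libraries and 4735, 5010.1, 5067 and 3863 CPM in the epithelial libraries (-7.02 ± 0.38, adjusted p = 1.5e-07). Klk1 (-6.29 ± 0.52), Spink4 (-6.64 ± 0.48) and the transmembrane mucin Muc13 (-5.57 ± 0.76) followed Muc2. Of 21 gut hormone and granule genes 20 were higher in epithelium. Guca2a stood at 4.43, 4.13 and 18.6 CPM in the macrophage libraries and 749.8, 792, 1689 and 762 CPM in the epithelial libraries (-6.78 ± 0.70, adjusted p = 4.6e-05), with epithelial library 6 far above the other 3. Pyy and Gcg, hormones of L cells that slow the gut and regulate glucose, stood at 293 ± 47.3 and 213 ± 32.1 CPM. Adm, adrenomedullin, was the member higher in macrophages (3.60 ± 0.43), and without macrophage library 4 there were 2.

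Defence proteins divided by kind. Of 24 antimicrobial and defence genes 16 were higher in epithelium and 5 in macrophages. Lysozyme was the macrophage product: Lyz2 stood at 6981, 8755 and 8644 CPM in the macrophage libraries and 26.1, 24.5, 40.9 and 42.3 CPM in the epithelial libraries (7.92 ± 0.27, adjusted p = 1.4e-08), and Lyz1 at 1348 ± 243 CPM, though the copies are near-identical and short reads may be shared between them. Retnla (8.92 ± 0.49), Gbp2 and Slpi were also higher in macrophages. The scavenger protein Dmbt1 stood at 28.1, 12.4 and 42.5 CPM in the macrophage libraries and 5948, 4867, 4532 and 6081 CPM in the epithelial libraries (-7.59 ± 0.44, adjusted p = 2.4e-07). Pigr, which carries IgA across the epithelium, stood at 879.6 ± 110.4 CPM (-6.71 ± 0.35), and Lypd8, Reg4 and Pglyrp1 completed the epithelial leading 5. Retnlb, a relative of Retnla, lay on the opposite side from it (-8.81 ± 0.73). Of 32 cathepsin, metalloproteinase and inhibitor genes 28 were higher in the macrophage libraries, led by Ctsb (2.17 ± 0.13), Cst3 (4.50 ± 0.16), Ctsc (4.25 ± 0.20), Ctss (4.76 ± 0.27) and Ctsz, and Mmp15, Mmp28 and Mmp7 were higher in epithelium, of which 1 call was left without epithelial library 2, 4 or 7. Lypd8 lost its call without macrophage library 2 (-4.16, adjusted p = 0.0712).

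**Figure D3:**
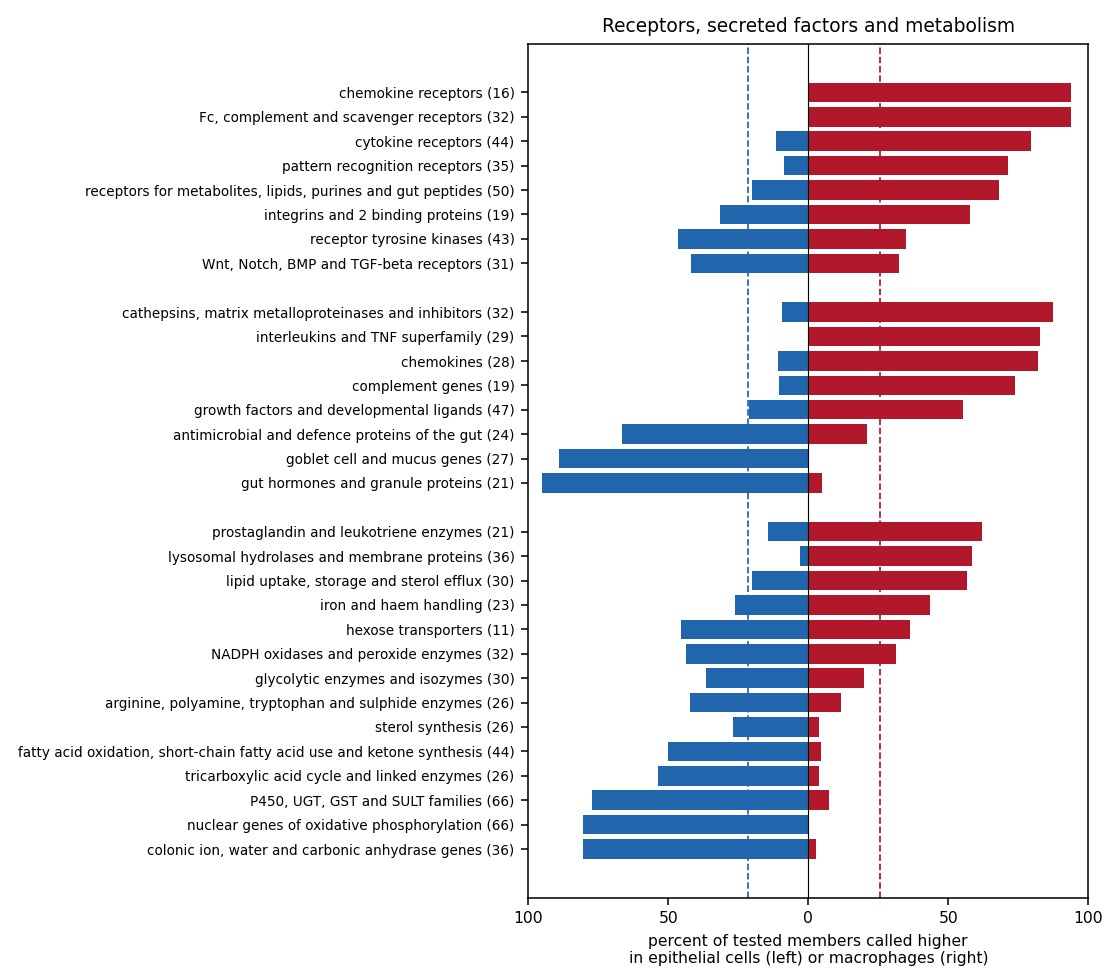
Percent of tested members of each list (number in brackets) called higher in epithelium (blue, left) or in macrophages (red, right). Dashed lines mark the shares of all tested genes, 21.4% and 25.7%. Immune receptors, cytokines and proteases extend right, mucus, hormone, ion transport and oxidative phosphorylation genes extend left, and receptor tyrosine kinases extend both ways. Growth factors pass the dashed line on the right only.

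Known ligands and receptors were then read together. Of 60 pairs 51 had both genes tested and 36 had both called. In 22 pairs both genes were higher in the macrophage libraries, among them Ccl2 with Ccr2, Il10 with Il10ra, Osm with Osmr, Tnf with Tnfrsf1a, C3 with C3ar1 and Cd47 with Sirpa. The 22 also hold pairs of Cxcl12, Pdgfrb and Kdr, named above as known from stromal or endothelial cells. Which cells of these libraries held each gene was not tested. In 6 pairs both were higher in epithelium, namely Guca2a with Gucy2c, Pyy with Npy1r, Efnb1 with Ephb2 and the ligands Hbegf, Tgfa and Egf with Egfr. The call of Npy1r did not hold with no low-count filter (adjusted p = 0.0558). The limits of Egfr given above hold for its 4 pairs with both genes called. In 6 pairs the ligand was higher in the macrophage libraries and the receptor in epithelium. These were Nrg1 with Erbb3 (7.01 and -4.50), Hgf with Met (5.30 and -1.22), Ereg with Egfr (3.44 for Ereg), Bmp4 with Bmpr1a (10.01 and -1.12), Sema4d with Plxnb1 (3.69 and -3.73) and Grn with Sort1 (2.98 and -3.48). In edgeR's test against a 2-fold threshold, the calls of Met and Bmpr1a did not hold, nor did that of Egfr. Grn, progranulin, stood at 1296, 1296 and 1242 CPM in the macrophage libraries, and its receptor gene Sort1 stood at 5.68, 9.59 and 4.48 CPM in the macrophage libraries and 69.2, 71.4, 83.6 and 68.4 CPM in the epithelial libraries. In 2 pairs the ligand was higher in epithelium and the receptor in the macrophage libraries, Cx3cl1 with Cx3cr1 and Ccl28 with Ccr10, of which Ccr10 (6.14 CPM) is known from plasma cells. Pairs describe RNA on each side and no contact was measured.

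**Figure D4:**
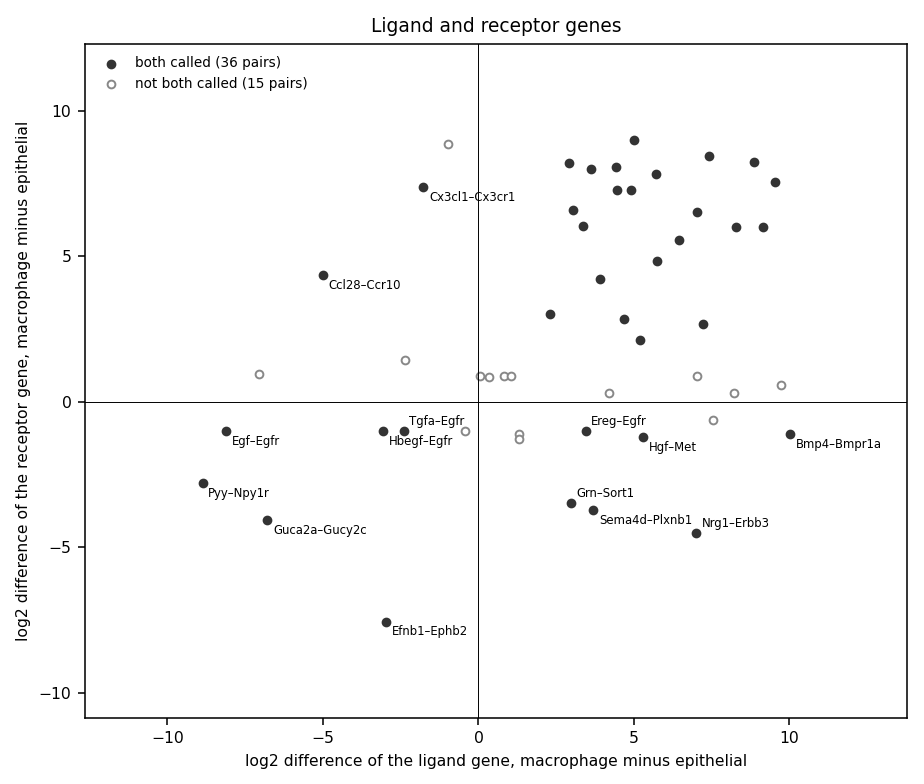
Log2 differences (macrophage minus epithelial) of the ligand gene on the x axis and the receptor gene on the y axis for 51 pairs with both genes tested. Filled points have both genes called. Names are given for the 14 called pairs that do not lie on the macrophage side for both genes: 6 lie at lower right (ligand higher in macrophages), 2 at upper left and 6 at lower left. Egf has no count in macrophages, so its position is not a bound.

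Metabolic genes separated the cell types by pathway and by isozyme. Of 30 glycolytic genes 6 were higher in macrophages, 11 in epithelium and 13 in neither. In macrophages the leukocyte hexokinase Hk3 stood at 20.7, 30.1 and 22.2 CPM in the macrophage libraries and 0, 0.107, 0 and 0.107 CPM in the epithelial libraries (8.40 ± 0.47, adjusted p = 1.8e-07). Hk2 (1.47 ± 0.38), the phosphofructokinase Pfkp (1.43 ± 0.22), its regulator Pfkfb3 (6.20 ± 0.17) and the aldolase Aldoc (1.87 ± 0.22) were higher there. In epithelium the phosphofructokinase Pfkl stood at 61.9, 74.4 and 57.8 CPM in the macrophage libraries and 185, 185, 195 and 224 CPM in the epithelial libraries (-1.61 ± 0.14, adjusted p = 4.8e-06). The pyruvate kinase Pklr (-6.46 ± 0.50), Hkdc1, Ldhb and the gluconeogenic Fbp1 and Fbp2 (-7.44 ± 0.42) were higher there. The shared enzymes Pkm and Ldha were not called, at 488 and 383 CPM for Pkm and 919 and 1519 CPM for Ldha. Hexose transporters split likewise, with Slc2a1 (1.05 ± 0.16, 0.85 without macrophage library 2 and 0.99 without epithelial library 4, then not called), Slc2a6 (5.28 ± 0.28) and Slc2a3 (7.61 ± 0.44) higher in macrophages and the sodium-linked Slc5a1 (-5.50 ± 0.48) and the fructose carrier Slc2a5 (-6.01 ± 0.60) in epithelium.

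Called genes of mitochondrial oxidation lay mostly on the epithelial side. Of 66 nuclear genes of oxidative phosphorylation 53 were higher in epithelium and none in macrophages, with a median log2 difference of -1.36. By complex, 25 of 33 genes of complex I, 9 of 9 of complex III, 9 of 10 of complex IV and 9 of 13 of complex V were called. Cox4i1 stood at 896, 778 and 795 CPM in the macrophage libraries and 2318, 2293, 2396 and 2361 CPM in the epithelial libraries (-1.51 ± 0.12, adjusted p = 2.1e-06), and Atp5a1 (-1.78 ± 0.15), Atp5b (-1.28 ± 0.15) and Uqcrc1 (-1.35 ± 0.16) were similar. Of the 9 protein genes of mitochondrial DNA that were tested, 2 were called, and all 9 differences were negative, between -1.09 and -0.54. All mitochondrial rows took 4.51% to 6.45% of counts in macrophage libraries and 11.6% to 18.1% in epithelial libraries. Of 26 tricarboxylic acid cycle genes 14 were higher in epithelium, led by Suclg1 (-2.71 ± 0.14). The exception, higher in macrophages, was Acod1, which diverts the cycle to itaconate, at 34.8, 36.6 and 31.3 CPM in the macrophage libraries and 0, 0.107, 0 and 0.427 CPM in the epithelial libraries (7.76 ± 0.50, adjusted p = 4.5e-07).

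Called genes of fatty acid, ketone and sulphide use lay mostly on the epithelial side. Of 44 genes of fatty acid oxidation, short-chain fatty acid use and ketone synthesis 22 were higher in epithelium and 2, Acsl4 and Cpt1c, in macrophages. The short-chain fatty acid transporter Slc5a8 stood at 1.48, 0.148 and 7.38 CPM in the macrophage libraries and 184, 166, 142 and 173 CPM in the epithelial libraries (-5.77 ± 0.71, adjusted p = 1.2e-04). Acss2 (-3.67 ± 0.20) was higher there too, while Cpt1a was not called (82.7 against 109.9 CPM). In the list of arginine, polyamine, tryptophan and sulphide enzymes 11 of 26 were higher in epithelium and 3 in macrophages. Ethe1 (-3.21 ± 0.17), Tst (-4.76 ± 0.17) and Sqor (-2.69 ± 0.14), which detoxify bacterial sulphide, and the monoamine oxidase Maoa (-3.60 ± 0.22) were among the epithelial ones. Tryptophan enzymes lay on opposite sides, with the kynurenine enzymes Kmo (6.88 ± 0.44) and Kynu (6.12 ± 0.54) in macrophages and the serotonin enzyme Tph1 (-9.11 ± 0.77) in epithelium. Of 26 sterol synthesis genes 18 were not called.

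Called genes of lipid handling, eicosanoid synthesis and lysosomes lay mostly on the macrophage side. Of 30 genes of lipid uptake, storage and efflux 17 were higher in macrophages and 6 in epithelium. Apoe stood at 6143, 11202 and 9484 CPM in the macrophage libraries and 45.9, 34.9, 97.1 and 97.7 CPM in the epithelial libraries (7.02 ± 0.44, adjusted p = 3.7e-07), with macrophage library 2 below the others. Npc2, Pltp (8.27 ± 0.44), Cd36 (8.85 ± 0.34) and Lipa (5.01 ± 0.20) were higher in macrophages, and Fabp2 (-6.27 ± 0.19) and Lpcat3 in epithelium. Of 21 prostaglandin and leukotriene enzymes 13 were higher in macrophages. The thromboxane synthase Tbxas1 (7.72 ± 0.31), the cyclooxygenases Ptgs2 (138, 169.7 and 282 CPM, 7.68 ± 0.43) and Ptgs1 (6.20 ± 0.44), Alox5ap and Alox5 led, and Cbr1, Ptges2 and Ephx2 were higher in epithelium. Of 36 lysosomal genes 21 were higher in macrophages, led by Psap (3.34 ± 0.12), and Glb1 was higher in epithelium (-1.13 ± 0.14), where 2 genes were called without macrophage library 4. The iron genes Fth1, Trf, Hfe, Slc48a1 and Blvrb were higher in macrophages, and Tfrc (-2.62 ± 0.34), Heph and Steap2 in epithelium, as was Steap1, at 0 in macrophages and at least 118-fold higher.

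Of 32 tested genes of NADPH oxidases and peroxide enzymes 10 were higher in macrophages, 14 in epithelium, and 8 were not called. The phagocyte oxidase subunit Cybb stood at 773, 1064 and 1095 CPM in the macrophage libraries and 4.77, 4.50, 6.96 and 9.72 CPM in the epithelial libraries (7.23 ± 0.30, adjusted p = 3.2e-08), and Cyba (2.28 ± 0.12), Rac2 (6.94 ± 0.34) and Gpx3 were higher in macrophages. The oxidase activator Noxa1 stood at 0.114, 1.77 and 0.132 CPM in the macrophage libraries and 154, 163, 127 and 164 CPM in the epithelial libraries (-7.92 ± 0.51, adjusted p = 5.0e-07). The organiser Noxo1 and the enzymes Nox1 and Duox2 were also higher in epithelium, these last 3 named after their values were seen. Gpx2, the gut glutathione peroxidase, stood at 11.1, 8.26 and 8.97 CPM in the macrophage libraries and 1505, 1520.2, 1219 and 1467 CPM in the epithelial libraries (-7.23 ± 0.20, adjusted p = 9.8e-09), and Prdx1 and Gsr were higher in epithelium. Of 66 tested genes of xenobiotic families 51 were higher in epithelium: 18 of 20 glutathione transferases, 9 of 9 UDP-glucuronosyltransferases, 5 of 6 sulphotransferases and 19 of 31 cytochrome P450 genes. Sult1a1 (-4.33 ± 0.17), Gsto1 (-2.73 ± 0.17) and Cyp2c55 (-5.97 ± 0.72) led these families in epithelium. Cyp4f18, which inactivates leukotriene B4, was among 5 P450 genes higher in macrophages (7.21 ± 0.36). Members of these families share sequence, and short reads may be divided between copies.

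**Figure D5:**
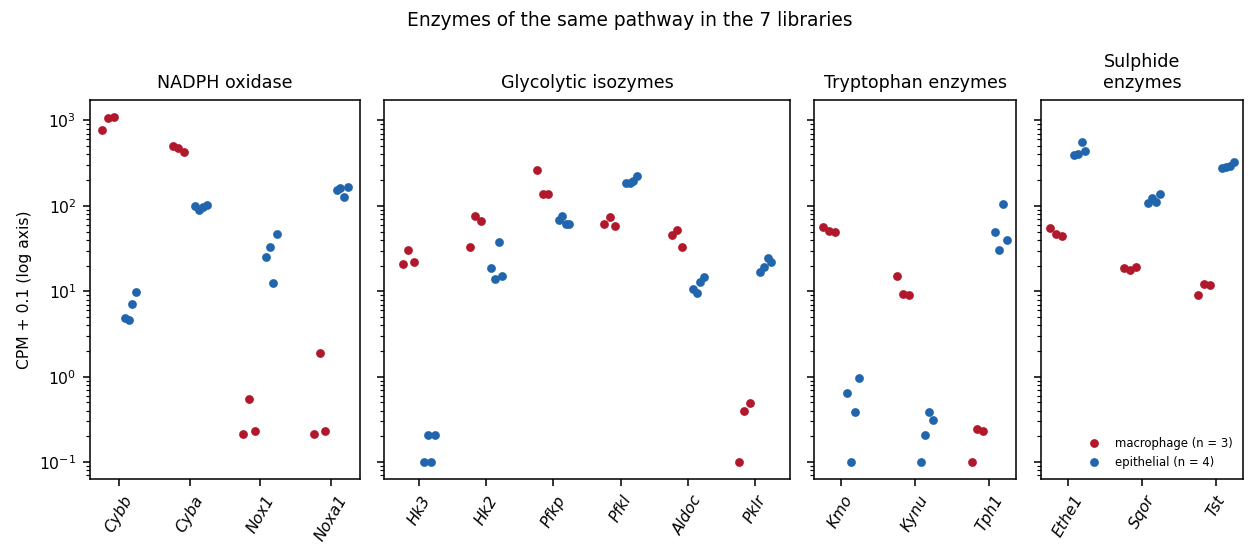
CPM + 0.1 on a log axis of enzymes of the same pathway in the 3 macrophage libraries (red) and 4 epithelial libraries (blue). Cybb, Hk3, Kmo and Kynu stand at 8.84 CPM or more in macrophages and below 10 CPM in epithelium, while Pfkl, Pklr, Tph1, Sqor and Tst have their higher points in epithelium.

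Ion transport, junction and keratin genes marked the epithelial sheet. Of 36 genes of colonic ion, water and bicarbonate transport 29 were higher in epithelium. Car1 stood at 9.77, 3.54 and 56.6 CPM in the macrophage libraries and 1279, 1249, 1517 and 1414 CPM in the epithelial libraries (-5.87 ± 0.95, adjusted p = 0.00106), with macrophage library 6 the highest of the 3 macrophage libraries. Car2 (-5.26 ± 0.58) and the potassium channel subunit Kcne3 (-4.80 ± 0.24) were also higher in epithelium. Aqp9, a glycerol channel of leukocytes, was higher in macrophages (6.68 ± 0.77), and without macrophage library 4 or 6 there were 2 such genes. Of 11 claudins 9 were higher in epithelium, led by Cldn3, Cldn7, Cldn2 and Cldn15, and Cldn5 (42.6, 19.3 and 40.0 CPM) and Cldn1 (28.6, 20.1 and 15.8 CPM) in the macrophage libraries. Cldn5 is known from endothelium. Krt8, Krt19, Krt18 and Krt7 were higher in epithelium and Krt80 (41.1, 19.2 and 34.0 CPM, 4.75 ± 0.44) in the macrophage libraries.

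Of 21 stem cell and Wnt target genes 16 were higher in epithelium, among them Prom1 (-6.72 ± 0.56), Smoc2 (-5.88 ± 0.50) and Ephb3, while Cd44, a sort antigen, and Myc (1.09 ± 0.28) were higher in macrophages. Myc lost its call without macrophage library 4 or epithelial library 2, at 0.92 in both. Of 36 cell cycle genes 21 were higher in epithelium, among them the replication genes Mcm6 (-1.62 ± 0.23), Mcm7 and Rrm1, and E2f1 was higher in macrophages (1.08 ± 0.21). E2f1 lost its call without macrophage library 2 or epithelial library 7, at 0.98 in both. Differences were moderate, since macrophage libraries held 95.2, 54.0 and 69.4 CPM of Mcm6 against 215, 262, 163 and 259 CPM in epithelium. All 16 MHC class II presentation genes, 3 of them sort antigens, were higher in macrophages, including Cd74 (7.26 ± 0.47, adjusted p = 4.8e-07), H2-DMb1 (7.50 ± 0.33) and H2-DMa. The macrophage gate took MHC II+ cells, so the direction of the sort antigens was set by the sort.

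The epithelial libraries were not uniform. Phgr1, Guca2a and Lypd8, singled out after their values were seen, were each highest in library 6, Lypd8 at 1501, 1444, 3174 and 1717 CPM. In the same library cell cycle genes summed to 1868 CPM against 2392 to 2795 CPM in the others. Hormone genes summed to 3223 CPM against 1776 to 1988 CPM, a sum that includes Guca2a and so is not separate from it. A ribosomal RNA gene (CT010467.1) took 31.8% of its counts against 18.5% to 22.8% in the other epithelial libraries. Among macrophage libraries, library 2 had the lowest sums for macrophage markers (15831 CPM against 20767 and 20330.2) and the highest for dendritic cell markers.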

How the data were processed

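RNA from sorted colon cells was made into full-length amplified cDNA (Smart-seq2 type) and sequenced as bulk libraries, per the labels' protocols. The authors deposited whole-number read counts per gene for every library and FPKM values per gene. Tools listed without a role, per the submitters' processing notes, were STAR 2.5.2b and Picard 2.19.2, with DESeq2 1.24.0 and build GRCm38. Strand use in counting is not given in the sources used here. Samples were grouped by their labels, and library totals are given in the report.

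Counts of the 7 control libraries were fitted with edgeR 4.0.16 (R 4.3.3): filterByExpr with a minimum count of 10, TMM scaling and the robust quasi-likelihood test, with Benjamini-Hochberg adjustment over all 15188 genes tested. All adjusted p-values are from this test. CPM are counts divided by TMM-scaled totals. A gene at 0 in a whole group is given as a bound against a floor of 3 counts over the group. In counts simulated for this comparison over 15188 genes, 25% of genes changed 2-fold and 97% of those changed 4-fold were called, and 42% of the former passed the adjusted p alone. The changed genes, 100 at each fold, were drawn only from genes with counts well above the filter's minimum. All others were left unchanged, unlike in the data, so these shares do not cover genes with few counts. Alternatives covered scaling, filters, other tests, sex, a replicate block and leaving out each library.

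Members and the 57 gene lists were chosen with earlier results of these data known. Of 1765 listed symbols 7 were not matched and 6 stood on more than 1 row and were left out. Named genes were the sort antigens and markers, the 10 most abundant called genes and the 10 largest differences in each direction (mean of 20 CPM or more), the 5 most abundant called members of each list in each direction, members called against their list's name, members of whole families, and genes of ligand and receptor pairs. Ribosomal protein, mitochondrial and antibody segment genes and provisional names were left out of the leading genes. Ccl6, Cdx2, Cpt1a, Duox2, Fev, Foxa1, Foxa2, Grhl2, H2-DMa, H2-DMb1, Lmx1a, Mef2c, Neurod1, Nox1, Noxo1, Pax6, Rfx6, Slc26a3 and Xbp1 lie outside this rule and were named after their values were seen. Some genes of the lists are counted but not reported here by name. Promoter windows are from RefSeq.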

Additional observations from a re-analysis of the deposited data

Results flagged for a closer look

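Of 311 values looked at for a library far from the other epithelial libraries, 18 passed Dixon's 95% limit for 4 samples. That share is near the 5% or so that chance alone would pass. Some of the genes looked at were named after their values were seen, so the share does not decide whether a library stands apart. Library 6 was involved in 12 of the 18. In that library Guca2a stood at 1689 CPM against 749.8 to 792 in the other 3, Lypd8 at 3174 against 1444 to 1717, Phgr1 at 1954 against 614 to 823, Cyp2c55 at 936 against 542 to 600.3 and Mmp15 at 83.4 against 32.1 to 33.2. The transcription factor genes Klf6 (202 CPM against 112 to 124), Klf4 (30.5 against 5.89 to 8.24) and Foxa1 (20.3 against 12.1 to 13.3) were also highest in library 6. So were Ffar4 (50.0 CPM against 26.8 to 29.2), Duox2 (29.7 against 6.43 to 9.87), Fbp1 (5.54 against 3.53 to 3.80) and Tbxas1 (2.27 against 0.651 to 0.857).

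Epithelial library 7 had less Ccl6 (721 CPM against 1113 to 1142) and Retnlb (36.3 against 96.8 to 107) than the others, and more Gata6 (45.6 against 40.6 to 40.8) and Gdf15 (9.40 against 3.64 to 4.56). Epithelial library 4 had less Pyy (222.5 CPM against 315 to 321) and Lyz1 (3.54 against 6.39 to 6.94).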

How the results depend on the processing

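No gene called in controls was called in the opposite direction under any of 21 alternatives. Calls numbered 1954 higher in epithelium with limma on log2(FPKM + 1) and 2069 with no filter, against 3248. Leaving out each library in turn gave 3720 to 4196 genes higher in macrophages and 3021 to 3370 in epithelium. Upper-quartile scaling gave 3601 genes higher in macrophages and 3697 in epithelium, and moved the median of all genes by -0.16, and the FPKM fits by 0.11 to 0.12. Among named genes without a call, Il18 turned to -0.11 and Irf7 to -0.11 with upper-quartile scaling, and Klf4 to 0.065 with voom. Leaving out each library moved the log2 difference of Il18 between -0.082 and 0.197, of Irf7 between -0.30 and 1.11 and of Klf4 between -0.72 and 0.40, the last without epithelial library 6. Over the alternatives other than leaving out a library, named genes lost a call 76 times, gained one 2 times and kept their side 5054 times.

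With the replicate number as a block, 3730 genes were higher in macrophages and 3026 in epithelium, 6604 of them shared with the unblocked fit. Of the named genes, E2f1 (0.99), Hes1 (1.15) and Npy1r (-3.00) lost their calls under the block and no other did. Deviations of same-numbered libraries correlated at 0.0536, 0.0300 and 0.0903, all under 0.1, the limit used for pairing. Macrophage libraries 4 and 6 correlated best with the epithelial library of their own number, and library 2 with epithelial library 4 (0.0591). By that limit the numbers were not taken to pair libraries, which does not exclude pairing. The labels do not say that a number marks an animal.

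Simulated 2-fold changes, which lie on the fold limit itself, were called in 25% of the changed genes, and 42% passed the adjusted p alone. Genes with few counts were not among those changed. Other lamina propria cells in the macrophage libraries and the uneven mitochondrial and ribosomal RNA shares move with the comparison.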
